A study of Arabidopsis thaliana with 4 samples.

Results

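Untreated roots of the Arabidopsis thaliana ein3eil1 mutant were set against untreated roots of the wild type Col, gene model by gene model. The deposited tables list only models that responded to cadmium (Cd), 1 table per genotype, so the comparison covers the 290 models listed in both. Of these, 260 had 1 RPKM (reads scaled to the length of the model and the size of the library) or more in at least 1 of the control libraries and are described here, out of 1518 models listed in either table. The 30 others stood below that level in both controls. Just inside the minimum lay LTL1 and ACS5, whose higher control values were 1.02 and 1.03 RPKM, and just outside it lay TIN1 and NAC042, at 0.966 and 0.934 RPKM. All seedlings were 5 days old and grown on MS medium, and the sampled tissue is given as primary root, from root tips. The mutant carries the ein3-1 and eil1-1 alleles, and the wild type is Col-0. Each genotype had 1 library without treatment and 1 after 150 µM CdSO4 for 6 h. No label says whether the untreated seedlings were kept for the same time. With 1 library a side no difference has a replicate check, and no test across plants could be made.

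EIN3 and EIL1 are transcription factors at the end of the ethylene pathway. In the absence of ethylene they are marked for degradation by F-box proteins, and when the hormone is perceived they accumulate and switch on ethylene-responsive genes. In roots, ethylene restrains elongation and promotes root hairs, and EIN3-type factors have also been tied to sulfur and iron nutrition, to jasmonate responses and to defence. EIN3 (AT3G20770) and EIL1 (AT2G27050) themselves are in neither table, so the mutant's genotype has no check here.

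The control libraries held 16993296 reads in ein3eil1 and 19192279 reads in Col, and the described models took 1.41% of the reads in ein3eil1 and 1.13% in Col. Every ratio below is untreated ein3eil1 over untreated Col unless Cd is named, and its interval is the 95% exact Clopper-Pearson interval computed from the reads of the 2 libraries. Such an interval covers counting error only. A listed model had changed at least 2-fold with Cd in both genotypes, so the set is no sample of all genes. In bulk roots, fewer cells of a type and less RNA per cell cannot be told apart.

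More models stood higher in the mutant than lower. At 2-fold or more, 66 of 260 were higher in ein3eil1 (25.4%) and 43 were lower (16.5%), and 151 lay between, so that 41.9% passed in either direction. The median log2 ratio was 0.38, and 168 ratios were above 0 against 92 below it. With ratios centred on that median, 38 models were 2-fold or more higher and 54 lower, so which direction prevails depends on the scaling. Counting error was small beside most of the calls: the interval left out equality for 64 of the 66 higher models and for all 43 lower ones, and it lay wholly beyond 2-fold for 41 and 33 of them. The exceptions were LSU3 and MIF3, which had 9 and 12 reads in ein3eil1. At the 2-fold threshold, AT4G09260, with 11.9 RPKM in ein3eil1 and 5.94 RPKM in Col, and NRT2.4, 2.02-fold higher, were just inside, and HSP90.1 and NUDX25 (1.99-fold and 1.98-fold) just outside. On the lower side AT4G17860 and CYP71A12 (2.02-fold and 2.08-fold lower) were just inside, and LEP (1.93-fold lower) was just outside. A group of 47 models lay within 1.2-fold.

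**Figure D1:**
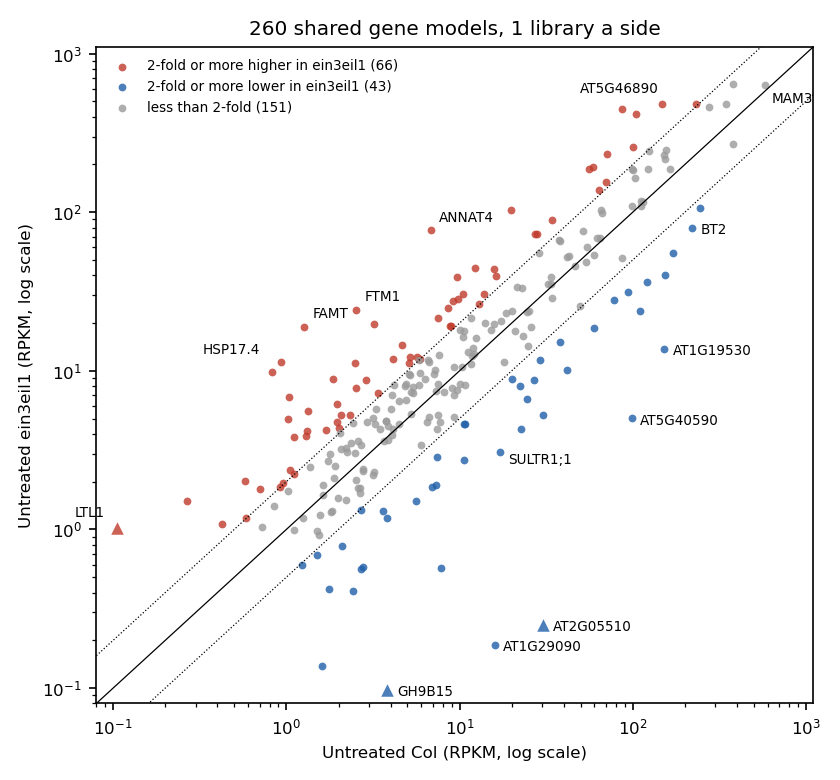
RPKM of the 260 models in untreated ein3eil1 (vertical, log scale) against untreated Col (horizontal, log scale), 1 library each. The solid line marks equality and the dotted lines 2-fold, 66 red points lie above and 43 blue points below, and triangles mark 3 models with 0 reads in 1 library, drawn at a floor of 3 reads.

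How a model responded to Cd limits what its untreated ratio can be. The log2 ratio without Cd equals the one with Cd plus the Cd response in Col minus that in ein3eil1, so a model that went up in Col and down in ein3eil1 is moved towards a higher untreated level in the mutant by at least 2 log2 units. All 18 models of that kind had a ratio above 0, and 15 were 2-fold or more higher. All 9 with the opposite responses were 2-fold or more lower, among them AT2G05510, AT1G29090, GH9B15 and MT2A. The choice of models favours these directions, so they are not read as a finding. Of the 18, 8 lie at loci with 1 reference transcript, as do 3 of the 9, against 175 of all 260 models. At the other loci reads may have been divided between models. Among the 233 models that responded to Cd in the same direction, 51 were higher and 34 lower. By direction, 30 of 124 models that went up with Cd in both genotypes were higher and 19 lower, and 21 of 109 that went down were higher and 15 lower.

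Among models with 10 RPKM or more in a control library, the 8 highest ratios were those of FAMT, HSP17.4, ANNAT4, FTM1, LOX3, PROPEP1, AT5G46890 and FMO GS-OX1. FAMT (AT3G44860, chr3:16379633-16381070), a farnesoic acid methyltransferase gene, had 18.9 RPKM in ein3eil1 and 1.27 RPKM in Col, from 397 and 30 reads. Its level was 14.9-fold higher (10.3 to 22.4). ANNAT4, for an annexin that binds membranes in a calcium-dependent way, stood at 77.3 RPKM in ein3eil1 and 6.82 RPKM in Col, 11.3-fold higher (9.7 to 13.3). FTM1, also called SAD6, codes for a stearoyl-acyl carrier protein desaturase and had 24.3 RPKM in ein3eil1 and 2.53 RPKM in Col. The low-oxygen list of 15 genes had this 1 shared member. AT1G19530, outside the list but described as involved in anaerobic respiration, pointed the other way at 11.1-fold lower. FAMT, FTM1, LOX3 and PROPEP1 belong to the 18 models whose direction the opposite Cd responses favour, while HSP17.4, ANNAT4, AT5G46890 and FMO GS-OX1 responded to Cd in the same direction in both genotypes.

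Defence signalling genes were among these 8. LOX3, a lipoxygenase at the start of jasmonate synthesis, had 19.9 RPKM in ein3eil1 and 3.21 RPKM in Col, 6.19-fold higher (5.28 to 7.29). It was the 1 shared member of 20 jasmonate genes. PROPEP1, the precursor of a danger peptide, had 103 RPKM in ein3eil1 and 19.7 RPKM in Col, 5.21-fold higher (4.46 to 6.12). Both intervals lay above 4-fold, but they cover counting error only. Both genes are of the class whose opposite Cd responses favour this direction. Their higher level is therefore not read as a finding.

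**Figure D2:**
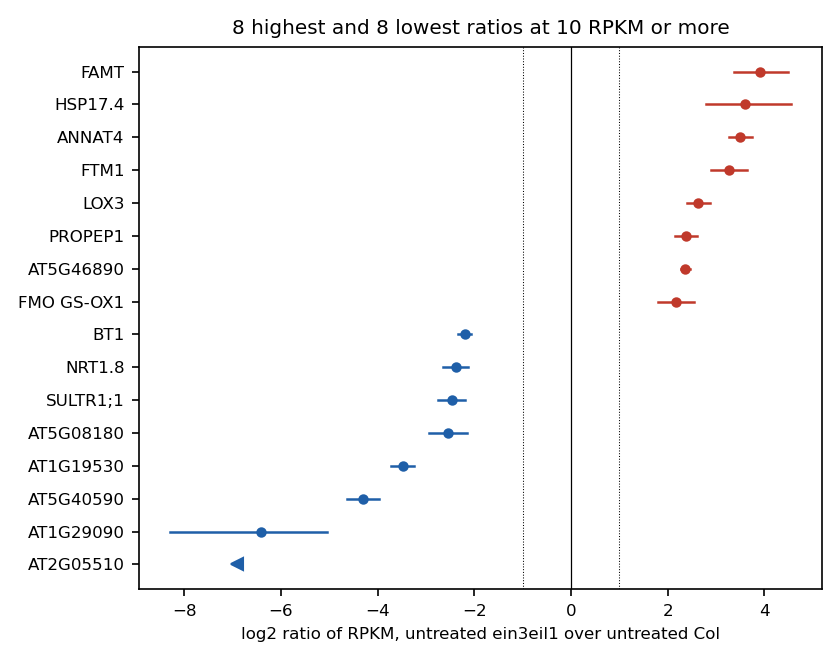
The log2 ratio of RPKM, untreated ein3eil1 over untreated Col, for the 8 highest and 8 lowest models with 10 RPKM or more in a control library. Points are single-library ratios, bars 95% exact counting intervals, dotted lines 2-fold, and the left-pointing triangle is a bound for AT2G05510, which had 0 reads in ein3eil1, so that FAMT is highest at 3.90 and BT1 the nearest to 0 of the low ones at -2.20.

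Small heat shock proteins, chaperones that hold unfolding proteins in solution, were higher in the untreated mutant. HSP17.4 (AT3G46230, chromosome 3) had 11.4 RPKM in ein3eil1 and 0.936 RPKM in Col, from 140 and 13 reads. The ratio was 12.2, with counting limits of 6.89 and 23.4. HSP17.6A (AT5G12030, chromosome 5) had 9.79 RPKM in ein3eil1 and 0.826 RPKM in Col, from 105 and 10 reads. HSP17.6II (AT5G12020), its neighbour, had 6.87 RPKM in ein3eil1 and 1.04 RPKM in Col, from 82 and 14 reads. Each of these 3 was scarce in Col. AT1G07400, AT2G29500 and AT5G51440, described as HSP20-like chaperones, were 4.14-fold, 2.88-fold and 2.16-fold higher. Of 12 small heat shock protein genes listed after the values were seen, 6 were described models and all 6 were 2-fold or more higher, with a median log2 ratio of 2.39 against 0.38 over all 260. With centring 5 of the 6 passed 2-fold, all but AT5G51440.

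The larger chaperones HSP70 and HSP90.1 had ratios above 0 too. HSP70 had 30.6 RPKM in ein3eil1 and 10.4 RPKM in Col, 2.93-fold higher (2.63 to 3.27), and HSP90.1 had 11.6 RPKM in ein3eil1 and 5.83 RPKM in Col. Of 10 models described as heat shock proteins or chaperones, 7 were 2-fold or more higher, against 25.4% of all models, and 1, the DnaJ-domain gene J8, was lower, against 16.5%. J8 had 106 RPKM in ein3eil1 and 245 RPKM in Col, 2.32-fold lower (2.19 to 2.46). HSP17.6A, HSP17.6II and other family members resemble one another, and how reads shared between them were counted is not given in the sources used here.

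Heat shock factors bind inverted repeats of GAA and TTC. Promoter windows of the 3 small heat shock protein genes with the highest ratios are printed because these genes stood high together. Each runs from 250 bases before to 50 bases after the first base of the deposited model, on the reverse strand of the TAIR10.1 reference genome from RefSeq, with GAANNTTC or TTCNNGAA in capitals.
HSP17.4 (chr3:16984792-16985091): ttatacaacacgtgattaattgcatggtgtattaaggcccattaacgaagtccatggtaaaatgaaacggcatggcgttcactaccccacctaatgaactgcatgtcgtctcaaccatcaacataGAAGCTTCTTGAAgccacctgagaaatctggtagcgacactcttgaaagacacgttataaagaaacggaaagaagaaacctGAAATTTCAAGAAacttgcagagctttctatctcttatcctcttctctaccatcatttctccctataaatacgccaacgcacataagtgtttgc
HSP17.6A (chr5:3884688-3884987): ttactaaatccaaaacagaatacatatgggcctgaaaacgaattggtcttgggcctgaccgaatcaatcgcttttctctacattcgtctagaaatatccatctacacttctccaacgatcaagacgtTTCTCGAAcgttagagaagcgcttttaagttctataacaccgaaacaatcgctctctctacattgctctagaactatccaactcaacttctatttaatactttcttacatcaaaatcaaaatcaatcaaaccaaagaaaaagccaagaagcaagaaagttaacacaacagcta
HSP17.6II (chr5:3882889-3883188): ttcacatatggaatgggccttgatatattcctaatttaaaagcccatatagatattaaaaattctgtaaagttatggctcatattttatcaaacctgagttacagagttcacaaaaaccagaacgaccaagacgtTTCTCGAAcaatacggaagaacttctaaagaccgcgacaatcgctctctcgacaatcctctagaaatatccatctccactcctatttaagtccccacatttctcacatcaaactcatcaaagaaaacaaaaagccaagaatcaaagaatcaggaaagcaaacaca
The window of HSP17.4 held 4 such repeats, in overlapping pairs that merge in capitals, and those of HSP17.6A and HSP17.6II held 1 each. The longest runs shared by the windows of HSP17.6A and HSP17.6II had 17 bases. The run caagacgtTTCTCGAAc holds that repeat, and the equally long run tctagaaatatccatct holds none. At least 1 repeat was in the windows of 5 of the 6 small heat shock protein models, with none in that of AT1G07400. The repeat was in 24.6% of the 260 windows and 19.4% of the windows at 37897 annotated gene starts. By call, it was in 24.2% of windows of higher models, 25.8% of those between and 20.9% of those of lower models. Both the 6 genes and the repeat were chosen after the values were seen, so the 5 of 6 is a description only. Hexamers of the kind EIN3 binds, ATGTAC or ATGTAT on either strand, were in 27 of 66 windows of higher models, 19 of 43 of lower models and 52 of 151 of those between, or 37.7% of all 260, and in 32.5% of the windows at annotated starts. A match of letters is a description and no binding site.

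Genes for aliphatic glucosinolates, the sulfur-rich defence compounds made from methionine, had ratios above 0 in all 17 described models of a list of 23. Over all 260 models, 168 were above 0. The interval lay above equality for all 17, and for 138 of the 260. With centring 15 of 17 stayed above 0, all but MAM1 and MAM3. Their median log2 ratio was 0.76, against 0.38 over all 260, and 6 of 17 (35.3%) passed 2-fold, against the 25.4% of all models. With centring 2 of 17 (11.8%) passed, GSTF11 and FMO GS-OX1, against 14.6% of all models, so the share of calls is not above the background on that scale. Summed over the 17, the level was 3256 RPKM in ein3eil1 and 2130 RPKM in Col.

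Within the pathway the size of the ratio varied by step. BCAT4, which opens methionine chain elongation, had 479 RPKM in ein3eil1 and 230 RPKM in Col, 2.08-fold higher (2.01 to 2.15). The condensing enzymes MAM1 and MAM3 were nearly level, MAM3 at 637 RPKM in ein3eil1 and 582 RPKM in Col and MAM1 at 186 RPKM in ein3eil1 and 163 RPKM in Col. The isomerase subunits IIL1, IPMI2 and IPMI1 were 1.40-fold, 1.53-fold and 1.58-fold higher. In the core pathway, CYP79F2 had 188 RPKM in ein3eil1 and 98.4 RPKM in Col, and CYP83A1 had 218 RPKM in ein3eil1 and 153 RPKM in Col. The conjugating GSTF11 and GSTU20 were 2.78-fold (2.39 to 3.24) and 2.57-fold (2.43 to 2.72) higher. The sulfotransferase SOT17, which completes the core structure, had 88.9 RPKM in ein3eil1 and 34.4 RPKM in Col, while SOT18 was 1.83-fold higher. The highest ratio in the list was that of FMO GS-OX1, which oxidizes the side chain, at 11.1 RPKM in ein3eil1 and 2.49 RPKM in Col, 4.47-fold higher (3.47 to 5.83). The side-chain enzyme FMO GS-OX3, outside the list, was 3.18-fold higher.

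Outside the list, APK2 and AK3 were named after their values were seen. APK2, which makes the activated sulfate used by sulfotransferases, had 154 RPKM in ein3eil1 and 70.2 RPKM in Col, 2.19-fold higher (2.07 to 2.33). AK3, an aspartate kinase on the route to methionine, was 2.59-fold higher (2.42 to 2.78). Both were under 2-fold with centring. The indole glucosinolate genes CYP83B1 and CYP79B3 were 1.66-fold and 1.52-fold higher, and CYP81F2 was 1.29-fold higher. CYP71A12, which acts on the route to the indole defence compound camalexin, was 2.08-fold lower (1.15 to 3.92) from 17 reads in ein3eil1 and 40 in Col. The 4 shared members of that list of 16 therefore pointed both ways.

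**Figure D3:**
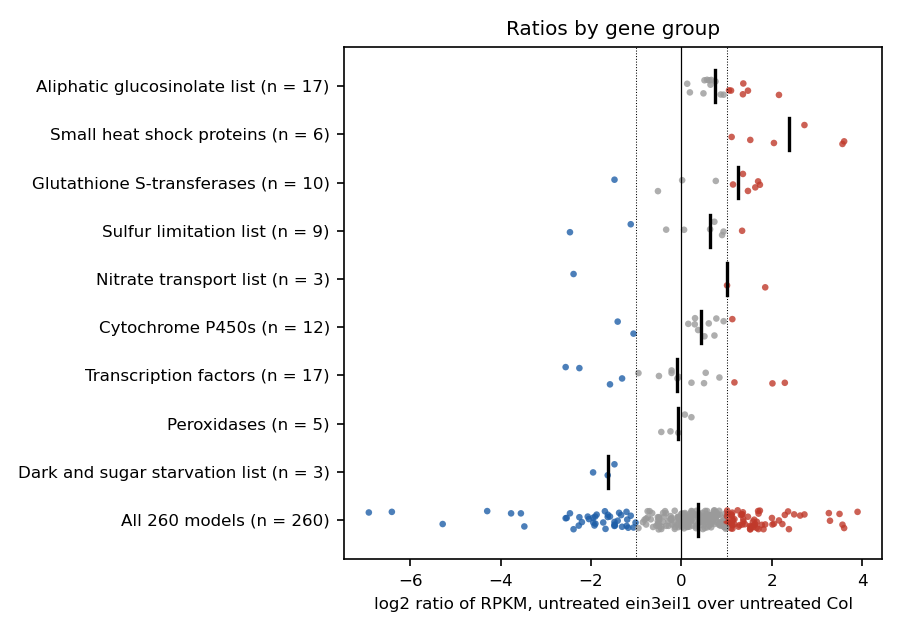
Log2 ratios of RPKM, untreated ein3eil1 over untreated Col, by gene group, 1 point per model, with the group median as a bar and dotted lines at 2-fold. The small heat shock proteins have a median of 2.39 and the aliphatic glucosinolate list one of 0.76, beside 0.38 for all 260 models, and the dark and sugar starvation list lies wholly below -1.

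Glutathione S-transferases, which attach glutathione to reactive molecules, were mostly higher. Of 10 described models, 6 were 2-fold or more higher, against 25.4% of all models, and 1 was lower, against 16.5%. Among those 6 are GSTF11 and GSTU20, which were also counted in the aliphatic glucosinolate list. With centring 4 of the 10 were higher and 1 lower. Their median log2 ratio was 1.25, and 7 stayed above 0 with centring. GSTU24 had 187 RPKM in ein3eil1 and 55.9 RPKM in Col, 3.34-fold higher (3.1 to 3.6), and the adjacent GSTU25 had 192 RPKM in ein3eil1 and 59.0 RPKM in Col. These neighbours are close in sequence, so their reads may have been shared. GSTU11 and GSTU22 were 3.11-fold and 2.21-fold higher. GSTU12 was level, at 1.64 RPKM in ein3eil1 and 1.62 RPKM in Col. GSTU4 was the lower member, at 1.30 RPKM in ein3eil1 and 3.62 RPKM in Col, from 20 and 63 reads.

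Glycosyltransferases, which attach sugars to small molecules, had 2 of 6 described models at 2-fold or more higher, against 25.4% of all, and none lower. All 6 ratios were above 0, as were 168 of the 260, and 4 stayed so with centring. UGT73B4 had 7.74 RPKM in ein3eil1 and 2.52 RPKM in Col, 3.07-fold higher (2.37 to 4.01). UGT74E2, which acts on the auxin indole-3-butyric acid, was 2.87-fold higher (2.45 to 3.37). Among 12 cytochrome P450 models 1 was higher (CYP89A2, 2.19-fold), against 25.4% of all models. CYP94D1 and CYP71A12 were lower, close to the 16.5% of all models. The median log2 ratio of the 12 was 0.44, against 0.38 over all 260.

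Genes with lipid-transfer protein domains included high levels, with ratios in both directions. AT5G46890 had 444 RPKM in ein3eil1 and 86.3 RPKM in Col, 5.15-fold higher (4.81 to 5.51), and its neighbour AT5G46900 had 478 RPKM in ein3eil1 and 147 RPKM in Col, 3.26-fold higher (3.1 to 3.44). AT1G62510, of the same family, pointed the other way, at 4.65 RPKM in ein3eil1 and 10.8 RPKM in Col. In all, 2 of 7 models of this description were 2-fold or more higher and 1 was lower, close to the 25.4% and 16.5% of all models. The defensin-like gene AT5G33355 had 72.6 RPKM in ein3eil1 and 27.3 RPKM in Col, 2.66-fold higher (2.2 to 3.21).

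Among DNA-binding and zinc finger descriptions, 3 of 17 were 2-fold or more higher and 4 lower, close to the shares of all models. MYB39, a regulator of suberin, had 4.99 RPKM in ein3eil1 and 1.02 RPKM in Col, 4.89-fold higher (3.2 to 7.74). NAC048 had 0.409 RPKM in ein3eil1 and 2.41 RPKM in Col, from 9 and 60 reads, 5.9-fold lower (2.91 to 13.5). MYB31 was 4.78-fold lower (2.73 to 8.93) and NAC003 2.48-fold lower. The phenylpropanoid repressor MYB4 was 1.45-fold higher. TIM10, a mitochondrial import protein, is in this count because its description names a zinc finger.

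The lowest ratios belonged to models with opposite Cd responses. AT2G05510, for a glycine-rich protein, had 0 reads in ein3eil1 and 410 in Col, or 30.2 RPKM in Col. With the 0 set to a floor of 3 reads, it was 121-fold lower. The exact counting interval, which also takes in the error of the Col reads, puts the limit at 98.0-fold. It has 6 transcripts in the reference annotation, and the deposited value is that of the model AT2G05510.1. AT1G29090, a cysteine protease gene, had 4 reads in ein3eil1 and 384 in Col, 85.0-fold lower with an interval from 32.9 to 314. GH9B15, of the endoglucanase family that cuts cell wall glucans, had 0 reads in ein3eil1 and 132 in Col. It was 39.0-fold lower against the same floor, with an exact counting limit of 31.2-fold. In the other direction LTL1, a lipase gene, had 26 reads in ein3eil1 and 0 in Col. It was 9.79-fold higher against the floor, with an exact counting limit of 7.41-fold. These 3 models are the ones with no read in a control library.

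A second kind of low model was well covered in both libraries. AT5G40590, for a cysteine- and histidine-rich C1 domain protein, had 5.00 RPKM in ein3eil1 and 98.4 RPKM in Col, from 83 and 1844 reads, 19.7-fold lower (15.8 to 24.8). AT1G19530, of unknown molecular function but described as involved in anaerobic respiration, had 13.7 RPKM in ein3eil1 and 152 RPKM in Col. Its level was 11.1-fold lower (9.48 to 13.1). The methyltransferase gene AT4G26220 had 40.2 RPKM in ein3eil1 and 152 RPKM in Col. The Cd libraries had the same order in these 3, and AT1G19530 had 5.10 RPKM in ein3eil1 and 40.8 RPKM in Col with Cd. Their Cd responses had the same direction in both genotypes.

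The transporter genes SULTR1;1 and NRT1.8 were among the lower models. SULTR1;1 (AT4G08620, chr4:5500313-5506265), the high-affinity sulfate transporter of the root surface, had 3.08 RPKM in ein3eil1 and 17.0 RPKM in Col, from 121 and 755 reads, 5.52-fold lower (4.55 to 6.75). NRT1.8, which takes nitrate out of the xylem sap, had 4.31 RPKM in ein3eil1 and 22.5 RPKM in Col, 5.23-fold lower (4.41 to 6.23). The other nitrate genes pointed up: NRT3.1, the partner protein of high-affinity nitrate transporters, had 44.5 RPKM in ein3eil1 and 12.3 RPKM in Col, 3.62-fold higher (3.11 to 4.23) though of the class with opposite Cd responses, and NRT2.4 had 1.86 RPKM in ein3eil1 and 0.921 RPKM in Col. These were the 3 shared members of 10 nitrate genes.

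The sulfur limitation list as a whole did not move with SULTR1;1. Of its 17 genes 9 were described models, with 1 higher (11.1%), 2 lower (22.2%) and 6 between. Of all models, 25.4% were higher and 16.5% lower. The median log2 ratio of the 9 was 0.64, against 0.38 over all 260. SULTR2;1, a sulfate transporter of the vasculature, was 1.66-fold higher (1.45 to 1.91), and APR3, which reduces activated sulfate, was 1.56-fold higher (1.35 to 1.79). The low-sulfur markers SDI2 and LSU2 were 1.87-fold and 1.91-fold higher. SHM7 was level at 35.2 RPKM in ein3eil1 and 33.8 RPKM in Col. GGCT2;1 (AT5G26220), which degrades glutathione, was the other lower member at 2.17-fold (1.04 to 4.85), from 11 reads in ein3eil1 and 27 in Col. With centring, 5 of the 9 ratios stayed above 0, none was 2-fold or more higher and 2 were lower.

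Of 9 genes known to be induced in darkness or sugar starvation, listed after the values were seen, 3 were described models, and each was 2-fold or more lower, against 16.5% of all models. Another list member, DIN2, was shared but under the minimum, with 9 reads in ein3eil1 and 12 in Col and an interval that held equality. BGAL4, a beta-galactosidase, had 55.1 RPKM in ein3eil1 and 171 RPKM in Col, 3.1-fold lower (2.96 to 3.24). BXL1, a beta-xylosidase of the cell wall, had 28.0 RPKM in ein3eil1 and 78.2 RPKM in Col, 2.79-fold lower (2.62 to 2.97). The raffinose synthase-type gene DIN10, in its model AT5G20250.2, was 3.87-fold lower (3.07 to 4.94). The related BXL2, outside the list and named after its value was seen, was 3.23-fold lower (2.99 to 3.5).

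The BTB and TAZ domain proteins BT1 and BT2, scaffolds that respond to nutrients and sugar, were lower. BT1 was named by rule, as 1 of the 8 lowest ratios. BT2 and the other genes of this paragraph were picked from the 43 lower models after their values were seen. BT1 had 24.0 RPKM in ein3eil1 and 110 RPKM in Col, 4.6-fold lower (4.21 to 5.04), and BT2 had 79.7 RPKM in ein3eil1 and 221 RPKM in Col, 2.77-fold lower (2.63 to 2.92). MEE14 and the aminotransferase AGT3 were 3.09-fold and 2.6-fold lower. The RING zinc finger gene AT5G22920 had 31.2 RPKM in ein3eil1 and 93.4 RPKM in Col.

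In the metal and iron lists, MT2A was the 1 member that passed 2-fold without centring. It is of the class whose opposite Cd responses favour that direction. This metallothionein, which binds metal ions, had 36.4 RPKM in ein3eil1 and 121 RPKM in Col, 3.32-fold lower (2.94 to 3.75). The zinc transporters ZIP9 and ZIP5 were at 1.71 RPKM and 2.70 RPKM in ein3eil1, against 2.67 RPKM and 1.74 RPKM in Col. The ferric reductase FRO2 had 51.4 RPKM in ein3eil1 and 86.2 RPKM in Col, 1.68-fold lower (1.59 to 1.77). The iron transporter IRT1 was 1.11-fold lower (1.03 to 1.2). These 2 were the shared members of 24 iron deficiency genes. With centring, FRO2 and ZIP9 passed 2-fold lower as well, at log2 ratios of -1.12 and -1.02, while IRT1 and ZIP5 did not. Outside both lists, AT1G21140, described as a vacuolar iron transporter family gene, had 4.65 RPKM in ein3eil1 and 10.7 RPKM in Col, 2.29-fold lower (1.74 to 3.06).

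Of 24 ethylene synthesis, perception and signalling genes, ACS5 was the 1 described model. This synthase of the ethylene precursor had 33 reads in ein3eil1 and 26 in Col, or 1.03 RPKM in ein3eil1 and 0.722 RPKM in Col, and an interval from 0.831 to 2.5 that holds equality. A difference was therefore not detectable at this depth. None of the 17 auxin genes was a described model.

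Several well-expressed genes of the differentiating root were level. The Casparian strip gene CASP2, a marker of the endodermis, had 116 RPKM in ein3eil1 and 115 RPKM in Col. The aquaporin PIP2;4 had 110 RPKM in ein3eil1 and 111 RPKM in Col, and its interval ran from 0.931 to 1.05 times the Col level. No peroxidase of 5 reached 2-fold, and neither did 151 of all 260 models. XTH23 and XTH33, which remodel cell wall xyloglucan, were 1.16-fold higher and 1.32-fold lower. No marker of photosynthetic tissue, root hair, xylem, root cap or meristem was a described model, so these tissues were not compared between the genotypes here.

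The genotype ratio was often similar in the Cd libraries. Of the 51 higher models with like Cd responses, 37 were 2-fold or more higher in ein3eil1 with Cd as well, 14 lay between and none was lower. Of the 34 lower ones, 26 were lower with Cd, 8 lay between and none was higher. Over all 260, 23.1% were higher and 16.2% lower in ein3eil1 with Cd. Keeping only like Cd responses leaves out the models that can most easily reverse. Over all 66 higher models, 38 were higher with Cd, 19 lay between and 9 were lower. Over all 43 lower models, 27 were lower with Cd, 12 lay between and 4 were higher. Models entered these counts by their Cd responses in all 4 libraries, so the counts are a description and no independent check.

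**Figure D4:**
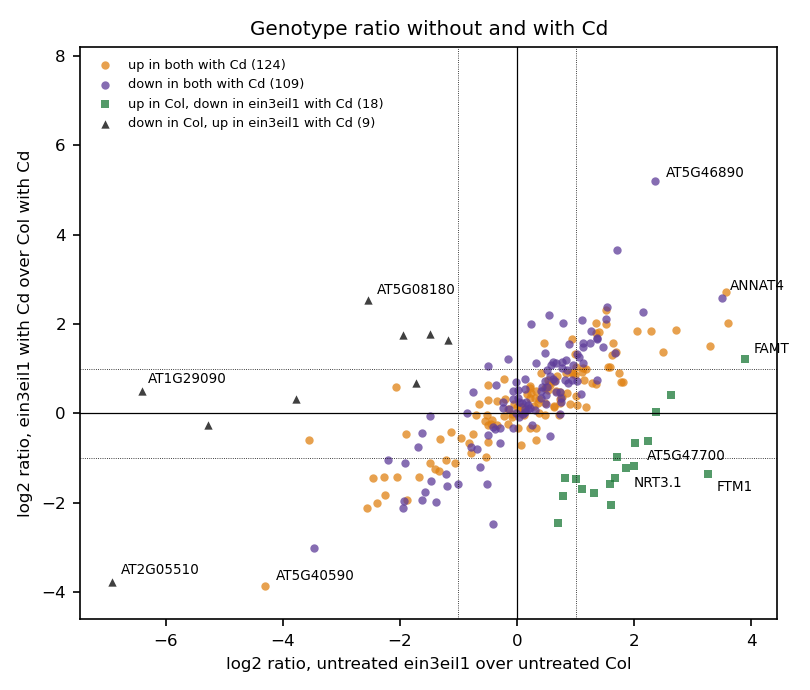
Log2 ratio of RPKM, ein3eil1 over Col, with Cd (vertical) against without treatment (horizontal), 1 point per model, colour and shape giving the Cd response in each genotype. Dotted lines mark 2-fold; the 18 squares lie right of 0 and the 9 triangles left of it, as the choice of models favours, and NF-YB5, AT2G05510, GH9B15 and LTL1 use a floor of 3 reads where a library had 0.

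Individual genes showed how far this went. HSP17.4 had 44.2 RPKM in ein3eil1 and 10.8 RPKM in Col with Cd, so the order of the controls was kept at higher levels. AT5G46890 had 955 reads in ein3eil1 with Cd, against 26 reads in Col with Cd, a wider gap than without it. SULTR1;1 had 32.5 RPKM in ein3eil1 and 88.6 RPKM in Col with Cd. BXL1, lower in untreated ein3eil1, had 13.9 RPKM in ein3eil1 and 14.5 RPKM in Col with Cd. PROPEP1 was also close to level with Cd, at 50.9 RPKM in ein3eil1 and 49.9 RPKM in Col.

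**Figure D5:**
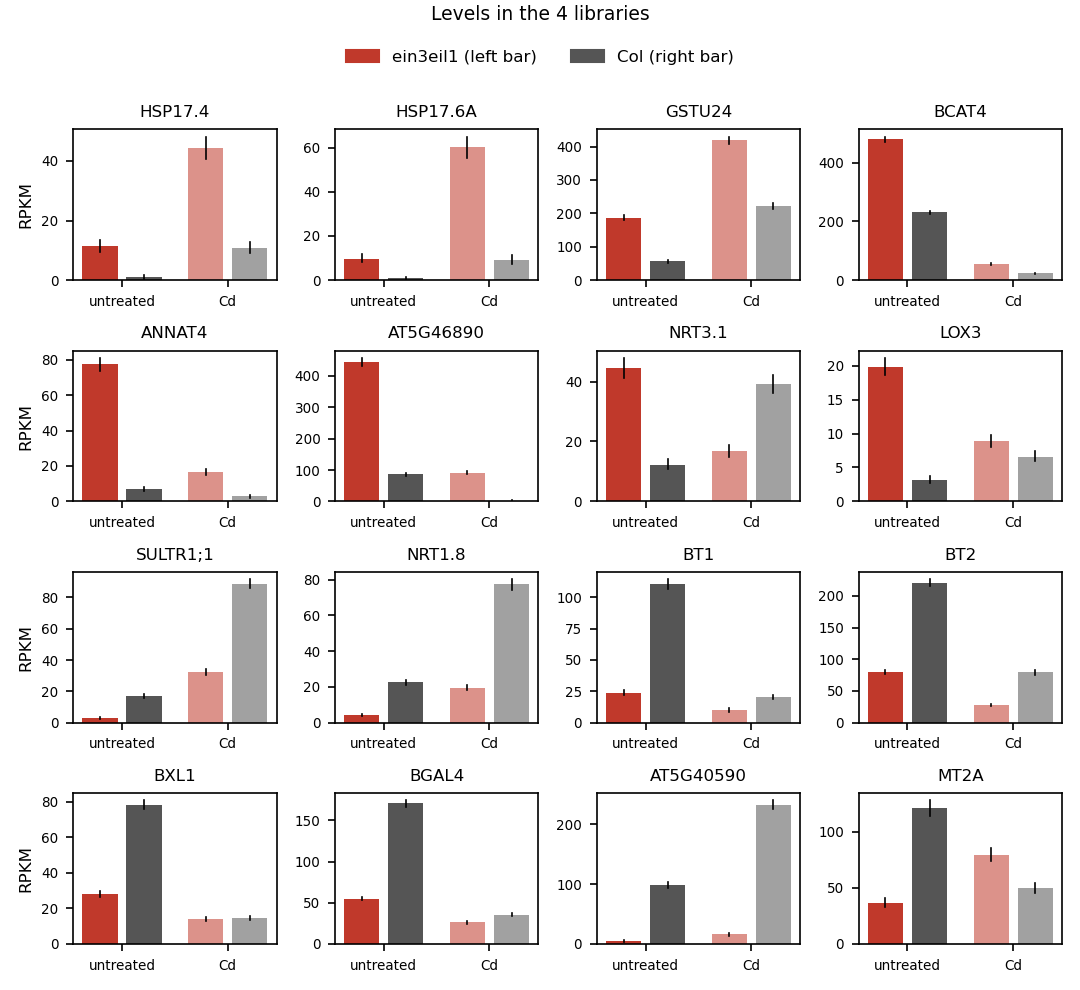
RPKM (linear axes from 0) of 16 models in the 4 libraries, ein3eil1 left of Col without treatment and with Cd, 1 library per bar, with 95% exact Poisson counting intervals as black lines. The 8 models of the upper rows are higher in untreated ein3eil1 and the 8 of the lower rows lower, and NRT3.1 and MT2A have the opposite order with Cd.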

How the data were processed

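Root RNA of 4 Arabidopsis groups, 1 library each, was sequenced. The authors deposited 2 tables of Cd-responsive models, with read counts, RPKM, the log2 ratio of Cd over control, p-values and FDR, per the file headers. The sources used here name no aligner, counting tool, strand setting or genome build. Where the authors' count is 0, the deposited RPKM is 0.001. Library totals were recovered from deposited counts, RPKM and model lengths. The largest FDR is 0.000967 in the Col table and 0.000987 in the ein3eil1 table.

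Ratios of RPKM without a pseudocount were called at 2-fold with 1 RPKM or more in a control library. A count of 0 was set to a floor of 3 reads (0.177 RPM in ein3eil1 and 0.156 RPM in Col). On simulated data for these 260 models, 94.6% of intervals held the true ratio, and every change of log2 2 or 3 was recovered. The simulated counts were Poisson without spread between plants, as the interval assumes, and the planted changes lay well beyond 2-fold. The simulation therefore checks the arithmetic only and says nothing on the spread between plants. Of the 290 shared models all matched a TAIR10.1 locus on the same chromosome and strand, and coding spans lay inside 271 of 285 coding models within 10 bases, so deposited coordinates were read on that genome.

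The models, 13 gene lists, 6 marker lists and 19 description patterns were chosen with earlier results of these data known, and 2 lists and the repeats searched in promoters were added after the values were seen. The words ERF and MATE were matched in capitals only, which left 17 transcription factor models in place of 71. Genes named were the 8 highest and 8 lowest ratios at 10 RPKM, the 6 highest levels, up to 3 per list or pattern, models with 0 reads and ethylene genes, and others were named after their values were seen. List entries without a unique symbol were assigned loci by hand, and 2 (DNAJ and HUP9) found none. Alternatives were another fold, another minimum, a pseudocount, centring, the interval, a stricter FDR, 1 model per locus and loci with 1 transcript. The calculations ran in Python 3.11.15 with pandas 2.3.3 and numpy 2.4.6, intervals came from SciPy 1.17.1, and plots from matplotlib 3.10.9.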

Additional observations from a re-analysis of the deposited data

Results flagged for a closer look

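The genotype ratio had opposite directions without and with Cd, at 2-fold or more in both, for 13 models, all of which responded to Cd in opposite directions in the 2 genotypes. In 9 of them ein3eil1 was higher without Cd and lower with it: FTM1, AT5G47700, NRT3.1, SIP2;1, AT1G56060, AT4G39363, AT1G05785, HEMB1 and AT4G09260. FTM1 had 24.3 RPKM in ein3eil1 and 2.53 RPKM in Col without Cd, and 2.21 RPKM in ein3eil1 and 5.66 RPKM in Col with Cd. AT5G47700, a 60S acidic ribosomal protein gene, had 418 RPKM in ein3eil1 and 104 RPKM in Col without Cd, and 1077 reads in ein3eil1 and 2422 reads in Col with Cd. In 4 of them, AT5G08180, ACO1, AT5G22440 and mtACP3, ein3eil1 was lower without Cd and higher with it. AT5G08180, a ribosomal protein gene, had 5.24 RPKM in ein3eil1 and 30.4 RPKM in Col without Cd, and 34.2 RPKM in ein3eil1 and 5.87 RPKM in Col with Cd. With 1 library per group the difference between treatments was not tested.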

How the results depend on the processing

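Against 66 higher and 43 lower models, a threshold of 1.5-fold gave 106 and 54, and 3-fold gave 31 and 27. Centring on the median gave 38 and 54, since it shifts every ratio by 0.38, and turns the sign of 38 of the ratios between. Loci with 1 reference transcript, 175 of 260 models, gave 47 and 25. A pseudocount of 1 RPKM gave 48 and 38. No minimum, 5 RPKM, the interval, the stricter FDR, 1 model per locus and, added after the data were seen, models with the same Cd direction left each count within 1.5 times. Of 36 higher models named by rule, 8 were under 2-fold with centring and 4 with the pseudocount, as were 3 of 23 lower ones with the pseudocount. No paired analysis was possible because each group has 1 library, and no replicate could be left out. Ratios resting on under 20 reads in a library have wide intervals.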
